A study of Rattus norvegicus with 24 samples.

Results

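Retinal microvessels (RMVs) were compared directly with brain microvessels (BMVs) of the rat. All arrays labelled as one of these isolates were used, 6 of RMVs and 6 of BMVs, which are 12 of the 24 arrays of the series. The other 12 arrays hold full retinal tissue (RT) and full brain tissue (BT), 6 each, and their values are given beside those of the microvessels. The animals were untreated male Wistar rats aged 12 weeks. Microvessels were isolated mechanically from frozen sections, by homogenization, a dextran density gradient and capture on a nylon mesh. The RMVs came from sections of whole eyes, and the BMVs from sections of brain hemispheres that had been freed of white matter, choroid plexus, meninges and vessels of the surface. Amplified RNA was hybridized to Affymetrix Rat Gene 2.0 ST arrays, whole-transcript arrays with several probes along each gene. According to the methods, 6 rats gave all 4 groups, so that RMVs and BMVs are not from independent animals. The labels number the arrays of a group as biological replicates without saying that a number marks a rat, and the fit treated the arrays as independent.

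Both kinds of microvessel carry a barrier between blood and neural tissue, the inner blood-retinal barrier and the blood-brain barrier. Their endothelial cells are sealed by tight junctions, rely on transporters for the passage of glucose, amino acids and lactate, and are held in this state by Wnt and norrin signals and by contact with pericytes. Around the larger vessels of the brain lies a perivascular space with fibroblasts and macrophages, and astrocyte endfeet cover the wall, while in the retina Müller glia take part in this cover.

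All values below are log2 signals, and a difference of 1 is a 2-fold change. Differentially expressed genes (DEGs) had to change 2-fold or more, with an adjusted p (Benjamini-Hochberg) below 0.05, in a limma model of all 24 arrays over 18166 named genes. RMVs showed 1993 DEGs against BMVs (11% of all genes), of which 1040 were higher (5.72%) and 953 lower (5.25%) in RMVs. These shares are the background for every count of list members called on the deposited scale. The arrays of both groups did not overlap for 1975 of these DEGs. Without a threshold of fold, arrays did not overlap for 25.4% of all genes upwards and 21.5% downwards. A change of 4-fold was exceeded by 285 genes upwards and 134 downwards, and one of 16-fold by 54 and 10. The split of the DEGs depended on how the arrays were scaled: 52.2% were higher in RMVs on the deposited scale, 40.7% after quantile normalization (883 higher, 1289 lower), 26.6% with arrays centred on their medians (672 and 1854) and 97.6% with arrays centred on endothelial markers (7270 and 177). No DEG was called in the opposite direction after quantile normalization. Each centring moves all genes by the same amount, which was too small to turn a call, so it could not show this. Array medians ran from 6.76 to 6.83 in RMVs and from 6.49 to 6.55 in BMVs, and the median of RMV minus BMV over all genes was 0.08. No call of presence was used, so that a low signal may be background and the fold of a gene with 1 low group may be too small.

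Markers of vessel cells were abundant in both isolates and lower in RMVs. The mean signal of 26 endothelial markers lay between 9.84 and 10.37 on the RMV arrays and between 10.84 and 10.96 on the BMV arrays, against 6.78 to 7.06 in RT and 7.35 to 7.46 in BT. For 19 pericyte markers it was 9.82 to 10.43 in RMVs and 11.05 to 11.18 in BMVs, and for 12 smooth muscle markers 8.29 to 9.04 and 9.36 to 9.77. In none of these lists did the arrays of both groups overlap. In bulk samples fewer cells of a type and less RNA per cell cannot be told apart. Each difference of a vessel gene given below stands beside the endothelial list. Its median was -0.7 on the deposited scale and 0.1 with arrays centred on these markers. With that centring 7270 of the 18166 genes were called higher and 177 lower, and the median of all genes was 0.88. These values are the background for counts and medians given below with endothelial centring.

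Genes of the retina were the ones that were most above the brain isolate. All 28 measured photoreceptor genes were higher in RMVs, by 2.52 to 9.35 (median 5.16, and between 4.86 and 5.96 under the other scalings), and the lists of other retinal cells followed in smaller steps. The rod transducin subunit Gnat1, which passes the light signal from rhodopsin to phosphodiesterase, had signals of 13.66 to 13.97 (median 13.9) in RMVs and 3.99 to 5.14 (median 4.48) in BMVs, a difference of 9.35 ± 0.11 (SE, 653-fold, adjusted p = 1.29e-29). Every RMV array lay far above every BMV array, and RT (14.03) lay with the RMVs. For Gngt1, the gamma subunit of the same transducin, signals were 12.66 to 13.11 (median 12.9) in RMVs and 3.75 to 4.11 (median 3.86) in BMVs, and the difference was 8.98 ± 0.09 (SE, adjusted p = 8.82e-31).

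Other photoreceptor genes among the leading changes serve the same cascade and its cell structure. The cyclic nucleotide gated channel Cnga1 differed by 8.17, the calcium sensor Rcvrn by 7.93, arrestin Sag by 7.78, phosducin Pdc by 7.54 and the phosphodiesterase subunit Pde6b by 6.65. Structural genes of the outer segment were raised to a similar degree, with Prph2, which shapes the disc rim, at 7.2 and the axonemal protein Rp1 at 7.14. Rbp3, which carries retinoids between photoreceptors and pigment epithelium, differed by 7.83, and the matrix proteoglycans Impg1 and Impg2 by 6.53 and 7.04. The SE of these 10 differences was at most 0.12, and their adjusted p at most 1.75e-25. For 16 of the 28 genes the difference was smaller in the microvessels than in the tissues by at least 1 with an adjusted p under 0.05. For none was it larger at these thresholds. Of all genes 5.15% had such a contrast below 0 and 10.4% above it. The mean signal of the list (median of the arrays) was 11.08 in RMVs and 11.49 in RT, and 5.594 in BMVs and 5.025 in BT. Abca4, the retinoid flippase of the discs, differed by 4.49 between the isolates and by 6.96 between RT and BT. Its means were 11.77 in RMVs, 12.39 in RT, 7.27 in BMVs and 5.43 in BT.

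Regulators of retinal identity rose in 12 of 15 measured cases, with a median of 1.45. Otx2, a homeodomain factor of photoreceptors and bipolar cells, was at 11.2 to 11.72 (median 11.51) in RMVs and 4.77 to 5.22 (median 4.97) in BMVs, and its difference was 6.49 ± 0.1 (SE, adjusted p = 3.02e-27). Its target and partner in photoreceptors, Crx, differed by 5.08, Pax6 by 3.45, Meis1 by 3.01 and Rax by 1.32. Of 19 genes of inner retinal neurons 14 rose and none fell (median 1.71), led by calretinin (Calb2, 5.51), the GABA receptor subunits Gabrr1 (5.03) and Gabrr2 (4.56) and Trpm1 (4.4), the channel of ON bipolar cells. Müller glia gave a mixed list, in which Car14 (3.36), Rlbp1 (2.98), Dkk3 (2.96) and Rax were higher and Slc1a3, the glutamate transporter that Müller cells share with astrocytes, was lower (-1.21).

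Other cells of the eye were represented to a lesser degree. Of 14 genes of pigment epithelium and melanocytes 6 were higher in RMVs and none lower (42.9%, against 11% of all genes), with a median of 0.65. The photoisomerase homolog Rgr had signals of 7.38 to 10.15 (median 8.39) in RMVs and 5.81 to 6.57 (median 6.39) in BMVs, a difference of 2.14 ± 0.44 (SE, adjusted p = 0.000113), and the melanosome enzyme Tyrp1 ones of 6.37 to 8.38 (median 6.89) in RMVs and 5.42 to 5.77 (median 5.5) in BMVs, a difference of 1.5 ± 0.41 (adjusted p = 0.0024). The RMV arrays spread widely for both genes, and RMV replicate 5 was the highest for both, as was replicate 5 of RT. Of 11 lens and corneal genes the crystallins Cryba1 (1.17) and Crygs (1.14) were higher (18.2%, against 11% of all genes), but neither passed 2-fold after quantile normalization or with centring on array medians, where the median of the list turned below 0, nor did Cryba1 without RMV replicate 4 (0.88). Of 8 skeletal muscle genes none passed the thresholds. Globin transcripts of red blood cells were also higher in RMVs, Hba-a1 by 1.31 and Hbb-b1 by 1.22, which stand for globin copies that probes may not tell apart. Hba-a1 was just below 2-fold after quantile normalization (0.998), as was Hbb-b1 with centring on array medians (0.93). These marker levels moved together with the group, and their part in other differences between RMVs and BMVs was not tested.

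**Figure D1:**
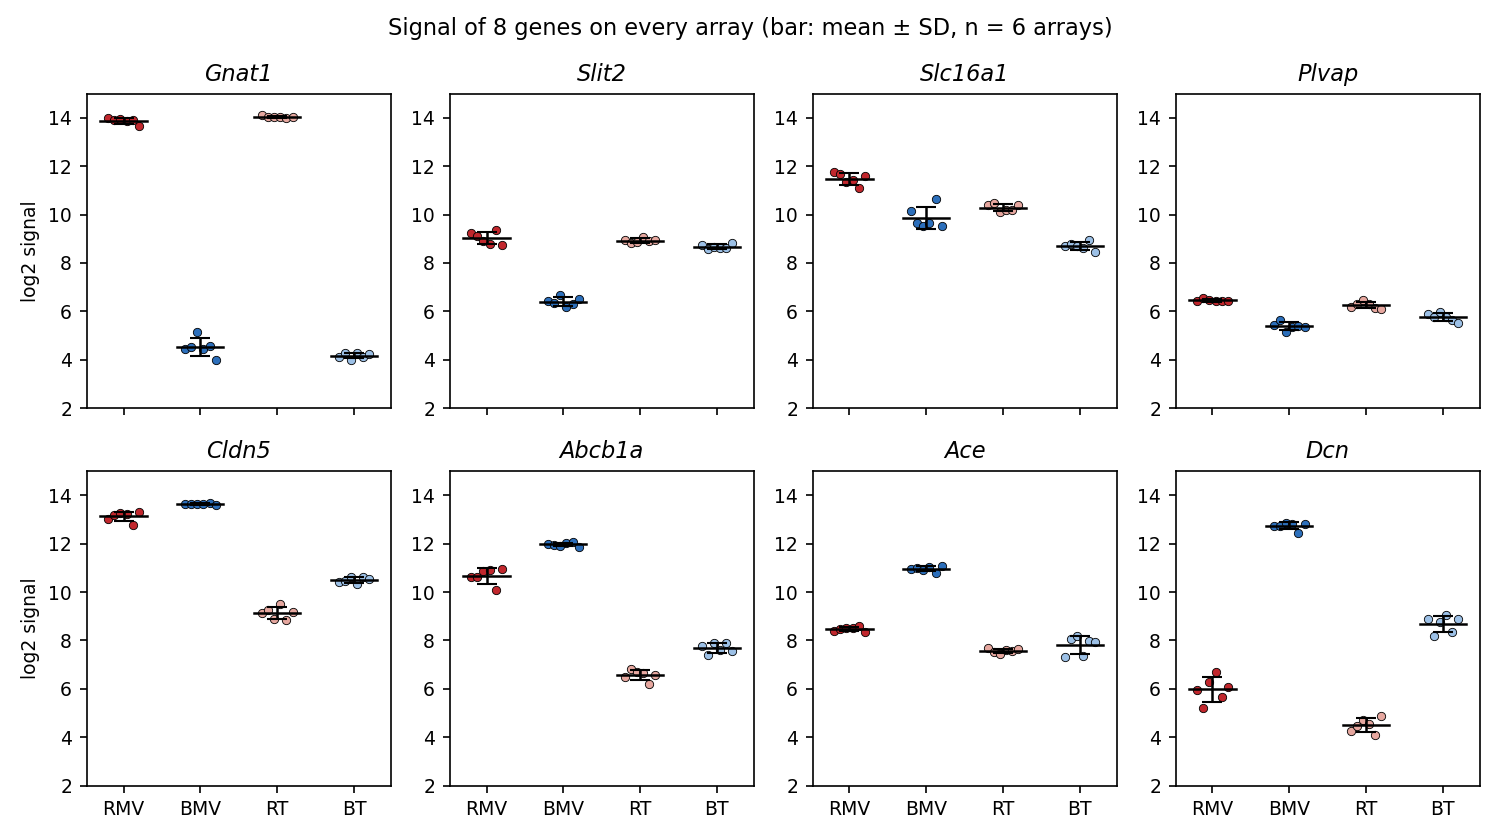
Log2 signal of 8 genes (vertical axis) on each of the 6 arrays of RMVs, BMVs, RT and BT, with points for arrays and bars for the mean ± SD. Gnat1 is high in both retinal groups, Dcn is highest in BMVs, and Cldn5 differs by only 0.51 between the isolates.

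Promoter sequence was described for these gene groups, since Otx2 and Crx, which were higher in RMVs, are known to bind a short homeodomain motif. Windows of 300 bases around the gene start in RefSeq (GRCr8), most of them before it, were searched on both strands for TAATCC, a core bound by factors of the Otx and Crx family. Of 14503 promoters 906 held it (6.25%), against 67 of 793 genes higher in RMVs (8.45%) and 28 of 723 genes lower in RMVs (3.87%). In the photoreceptor list it was found for 9 of 22 promoters (40.9%), and among genes past 16-fold for 12 of 42 (28.6%), both sets chosen after the values were seen. The holders in the list were Pde6a, Cngb1, Crx, Prph2, Gngt1, Opn1sw, Abca4, Guca1a and Aipl1, with 2 copies each in Cngb1 and Crx. Examples from its holders show its place, with the motif in capitals, which reads GGATTA where it lies on the opposite strand.
Gngt1 promoter, chr4:32960695-32960994, strand +: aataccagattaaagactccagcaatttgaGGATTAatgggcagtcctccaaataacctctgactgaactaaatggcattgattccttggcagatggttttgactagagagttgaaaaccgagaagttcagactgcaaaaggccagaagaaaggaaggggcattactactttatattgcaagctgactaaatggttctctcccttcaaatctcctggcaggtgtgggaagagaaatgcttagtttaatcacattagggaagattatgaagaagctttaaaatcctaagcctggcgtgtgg
Prph2 promoter, chr9:21579025-21579324, strand -: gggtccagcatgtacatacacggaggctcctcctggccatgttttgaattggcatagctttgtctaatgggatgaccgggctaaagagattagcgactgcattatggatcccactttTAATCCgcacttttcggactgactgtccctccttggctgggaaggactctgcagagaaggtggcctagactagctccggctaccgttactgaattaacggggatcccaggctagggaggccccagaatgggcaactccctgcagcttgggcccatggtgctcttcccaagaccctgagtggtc
Cngb1 promoter, chr19:9732396-9732695, strand +: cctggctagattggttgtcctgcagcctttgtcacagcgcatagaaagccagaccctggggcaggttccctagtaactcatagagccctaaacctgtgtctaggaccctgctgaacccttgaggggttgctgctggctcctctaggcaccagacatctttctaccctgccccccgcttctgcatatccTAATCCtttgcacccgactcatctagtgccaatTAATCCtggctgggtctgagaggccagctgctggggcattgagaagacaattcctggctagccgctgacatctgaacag
The motif starts at -220 from the gene start in Gngt1, at -133 in Prph2 and at -62 and -29 in Cngb1. The shares of the other 5 motifs searched, in genes higher in RMVs, genes lower in RMVs and all genes, were 5.04%, 6.09% and 4.04% for TGCTGAC, 3.03%, 2.49% and 2.89% for TGTTTAC, 0.504%, 0.692% and 0.841% for ACAGGAAGT, 1.26%, 3.46% and 3.08% for ATCAAAG, the core of the Tcf and Lef factors, and 1.64%, 1.24% and 1.37% for the CArG box. A match is a description of letters and was not tested.

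Clusters named for microRNA hairpins formed a further group, which was chosen after its values were seen. The array measures RNA of the hairpin region and not the mature microRNA. Of 363 measured hairpins 47 were higher in RMVs and 4 lower (12.9% and 1.1%, against 5.72% and 5.25% of all genes), with a median of 0.33, which was 0.07 after quantile normalization and 0.03 with arrays centred on their medians. The medians of all genes moved as well, from 0.08 to -0.08 and -0.22. Quantile normalization left 32 hairpins higher and 8 lower, and centring on array medians 30 and 9. Hairpin signals were low, with array means around 5.6 in RMVs and 5.13 in BMVs. Olfactory and vomeronasal receptors, another family of low signal, leaned upwards too, with 1035 of 1344 above 0 (median 0.21). Of these receptors 25 were called higher and 1 lower (1.93%, against 11% of all genes). The microRNAs of retinal neurons and pigment cells are shown with one of smooth muscle that was lower, the seed (bases 2 to 8) in capitals and the sequences taken from RefSeq (GRCr8).
rno-miR-204-5p, chr1:229743493-229743514: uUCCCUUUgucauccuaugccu
rno-miR-211-5p, chr1:127189353-127189374: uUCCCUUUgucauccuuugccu
rno-miR-182, chr4:59752249-59752273: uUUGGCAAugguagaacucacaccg
rno-miR-96-5p, chr4:59755901-59755923: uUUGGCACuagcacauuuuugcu
rno-miR-183-5p, chr4:59756106-59756127: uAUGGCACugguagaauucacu
rno-miR-145-5p, chr18:57370033-57370055: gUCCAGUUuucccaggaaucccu
The hairpins of miR-204 and miR-211, whose 5p arms share their seed, differed by 3.07 and 1.07. Mir204 had signals of 6.63 to 8.9 (median 8.07) in RMVs and 4.45 to 5.04 (median 4.82) in BMVs, so that all RMV arrays were above all BMV arrays in spite of a wide spread. The neighbouring hairpins Mir182, Mir96 and Mir183, a cluster known from sensory cells, differed by 3.11, 1.68 and 1.38. The neuronal hairpins Mir124-3 (4.08) and Mir218-1 (3.16) led the group. Downwards, Mir145, which smooth muscle cells express, had signals of 4.32 to 4.76 (median 4.56) in RMVs and 6.02 to 6.74 (median 6.4) in BMVs and differed by -1.82 ± 0.11 (SE, adjusted p = 1.69e-13), and Mir126b by -1.34 (adjusted p = 3.05e-09).

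Dcn and Lum, genes of perivascular fibroblasts, lay farthest below the brain isolate, and the listed genes of perivascular macrophages were lower without exception. Of 24 fibroblast genes 15 were lower in RMVs and none higher (median -1.66), and of 10 perivascular macrophage genes all 10 were lower (median -1.75). With arrays centred on endothelial markers the medians remained below 0 (-0.86 and -0.95), and 10 and 5 genes were called. Decorin (Dcn), a small proteoglycan of collagen fibrils, had signals of 5.2 to 6.71 (median 6.03) in RMVs and 12.44 to 12.86 (median 12.77) in BMVs, a difference of -6.75 ± 0.18 (SE, 108-fold, adjusted p = 1.72e-21). Its relative lumican (Lum) was at 3.64 to 4.19 (median 4.0) in RMVs and 9.85 to 10.31 (median 10.11) in BMVs, a difference of -6.16 ± 0.15 (adjusted p = 1.78e-22). No RMV array came near a BMV array for either gene.

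Transporters of the arachnoid and perivascular fibroblast followed, with the GABA and taurine carrier Slc6a13 at -4.75, the sulfate carrier Slc13a4 at -4.34, the organic anion carrier Slc22a6 at -3.64 and the proline carrier Slc6a20a at -3.52. Among matrix and secreted products Col12a1 differed by -4.54, Col1a1 by -2.33, the retinol carrier Rbp4 by -3.87 and the retinoic acid enzyme Aldh1a2 by -3.35. Pdgfra, the PDGF receptor of fibroblasts and oligodendrocyte precursors, differed by -3.13. Of the macrophage genes the mannose receptor Mrc1 was at 5.09 to 5.27 (median 5.2) in RMVs and 9.04 to 9.28 (median 9.15) in BMVs, a difference of -3.96 ± 0.1 (SE, adjusted p = 2.42e-22), while the haemoglobin scavenger receptor Cd163 differed by -3.25 and the hyaluronan receptor Lyve1 by -2.7. The difference between the isolates exceeded that between the tissues downwards for 13 of the 24 fibroblast and 9 of the 10 macrophage genes. This means by at least 1 with an adjusted p under 0.05, and 5.15% of all genes had such a contrast below 0. Mrc1 differed by -0.83 and Slc6a13 by -0.55 between RT and BT.

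Genes of microglia, oligodendrocytes and astrocytes were mostly lower. Of 14 microglial genes 10 were lower in RMVs (median -1.64), led by the complement subunit C1qa (-2.94) and by Gpr34 (-2.37), and of 12 oligodendrocyte genes 10 were lower (median -2.41), led by the myelin claudin Cldn11 (-3.27), Opalin (-3.16) and Mog (-3.16). Of 13 astrocyte genes 9 were lower (median -1.24), among them Gfap (-2.51) and the gap junction protein Gja1 (-1.99), and 1, the glycolytic enzyme Aldoc, was higher (1.11). For 9 of the oligodendrocyte genes and 5 of the astrocyte genes the interaction was above 0 at both thresholds, against 10.4% of all genes. The tissues thus lay farther apart than the isolates, as for Opalin with -5.43 between RT and BT. The fatty acid binding protein of glia, Fabp7, was among the 12 leading genes that fell, at -4.32 in the microvessels and -6.59 in the tissues. Genes of brain neurons split, with 4 higher and 6 lower of 16 (median 0.12, -0.13 after quantile normalization): the vesicular glutamate transporter Slc17a7 (2.07), which retinal neurons also use, and Syt1 (1.96) were higher, while cortical Nrgn (-1.88), Neurod6 (-2.3) and Gabra5 (-1.21) were lower. For 15 of these 16 genes the interaction was above 0 at both thresholds (10.4% of all genes). The median of the 16 genes between RT and BT was -1.75. Mean levels of the fibroblast list were 6.72 to 6.94 in RMVs and 8.75 to 9.04 in BMVs, and of the oligodendrocyte list 6.45 to 6.57 and 8.51 to 9.0. The macrophage list was at 6.22 to 6.4 and 8.35 to 8.44, without overlap in any of these lists. Of 13 leukocyte genes 4 were lower (30.8%, against 11% of all genes called), but 6 lay above 0 and the median was -0.03. Of 9 genes of choroid plexus and ependyma 2 were lower and 3 higher, among them Otx2 and the thyroxine carrier Ttr (2.56), which pigment epithelium also makes.

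**Figure D2:**
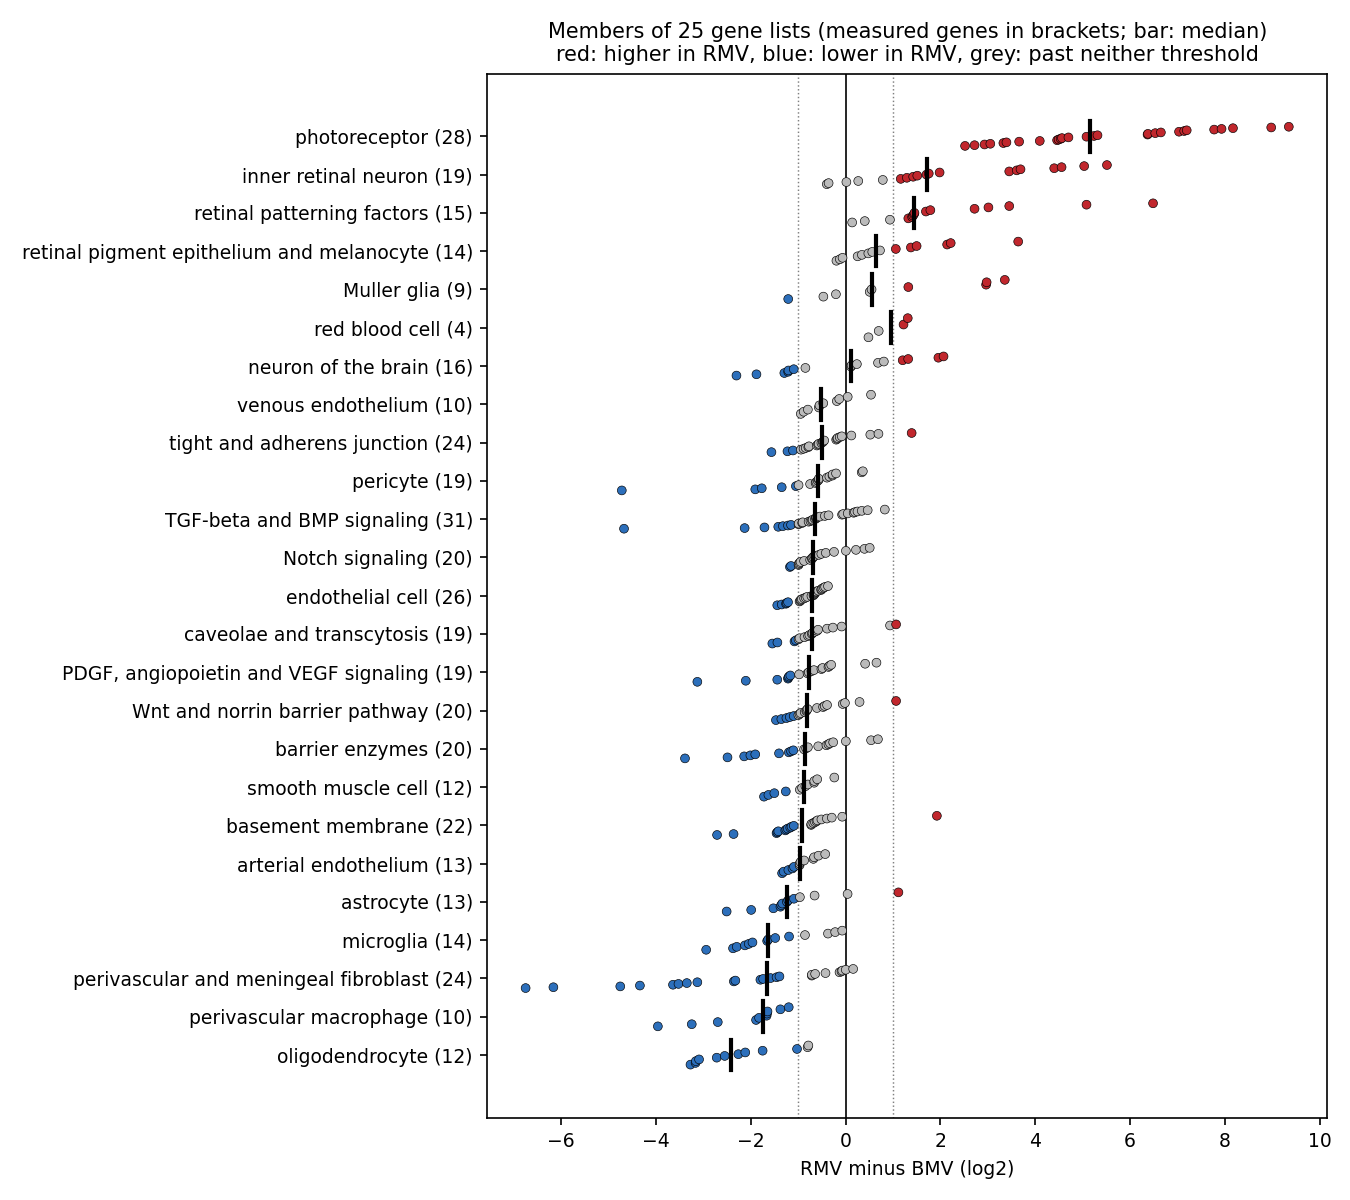
RMV minus BMV (horizontal axis, log2) of every measured member of 25 gene lists, in red or blue where it passed both thresholds, with a bar at the median of each list. Photoreceptor genes lie farthest to the right with a median of 5.16, and oligodendrocyte genes farthest to the left with a median of -2.41.

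Within the vessel wall, all 26 endothelial markers lay below 0 on the deposited scale. For 24 of them arrays did not overlap, as for 21.5% of all genes in this direction. Only 5 passed the 2-fold threshold (19.2%, against 5.25% of all genes lower). With arrays centred on these same markers their mean difference is 0 by construction, so that the absence of calls there is no result. The 5 were the angiopoietin receptor Tek (-1.21) with its partner Tie1 (-1.44), the transcription factor Erg (-1.35), the guidance receptor Robo4 (-1.24) and Adgrl4 (-1.26). Tie1 had signals of 10.23 to 10.82 (median 10.61) in RMVs and 11.98 to 12.1 (median 12.01) in BMVs, and the BMV arrays differed little among each other. For claudin-5 (Cldn5), the main claudin of the barrier, signals were 12.78 to 13.29 (median 13.2) in RMVs and 13.59 to 13.67 (median 13.63) in BMVs, a difference of -0.51 ± 0.09 (SE, adjusted p = 3.47e-05), which is below 2-fold, and for von Willebrand factor (Vwf) the difference was -0.37 ± 0.1. Arterial genes were lower in 5 of 13 cases (38.5%, against 11% of all genes, median -0.97, -0.17 with endothelial centring), among them the netrin receptor Unc5b (-1.34, but -0.28 as the mean of its clusters), the chemokine Cxcl12 (-1.31) and the arterial connexin Gja5 (-1.12). Of 10 venous genes none passed the thresholds.

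Pericyte genes separated into unequal parts. The transporter-like ATPase Atp13a5, a marker of brain pericytes, had signals of 5.29 to 6.53 (median 6.28) in RMVs and 10.59 to 11.06 (median 10.86) in BMVs, a difference of -4.72 ± 0.16 (SE, 26.4-fold, adjusted p = 3.03e-19). Aminopeptidase N (Anpep, -1.91), the forebrain factor Zic1 (-1.77) and vitronectin (Vtn, -1.35) were lower as well, whereas the general pericyte genes Rgs5 (-0.27), Pdgfrb (-0.34), Kcnj8 (0.34) and Abcc9 (0.36) did not pass the 2-fold threshold. The median of the 19 genes was -0.59, and 0.21 with endothelial centring (0.88 over all genes), where 2 genes were called higher and 2 lower. Smooth muscle genes were lower in 4 of 12 cases (33.3%, against 11% of all genes), for example the myosin Myh11 (-1.5), Synpo2 (-1.72) and the calcium pump regulator Pln (-1.63). Their median was -0.88, and none of the 12 was called with endothelial centring.

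Of 24 tight and adherens junction genes 20 lay below 0, and 3 were called lower in RMVs and 1 higher (16.7%, against 11% of all genes). Their median was -0.49, and 0.3 with endothelial centring, where 3 were higher and none lower. The median of all genes was 0.88 with that centring, so the list still lay below it. Occludin (Ocln) had signals of 9.07 to 10.02 (median 9.84) in RMVs and 10.81 to 11.04 (median 10.96) in BMVs and differed by -1.23 ± 0.13 (SE, adjusted p = 4.28e-09). The tricellular junction protein Lsr differed by -1.11 (-0.90 and no longer called after quantile normalization) and Cldn10 by -1.56, while Cldn12 was higher (1.39). Tjp1, the scaffold ZO-1 (-0.89), VE-cadherin (Cdh5, -0.84) and the catenin Ctnna1 (-0.79) stayed below 2-fold. Among connexins the neuronal Gjd2 was higher (2.45), and Gja1, Gjb2 (-1.35), Gjb1 (-1.25), Gjb6 (-1.24) and Gja5 were lower, of which Gja1 and Gjb6 are astrocytic and Gjb1 belongs to oligodendrocytes.

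Of 357 genes of the solute carrier family 35 were higher and 36 lower on the deposited scale (9.8% and 10.1%, against 5.72% and 5.25% of all genes), with a median of 0.12 that turned to -0.09 after quantile normalization. The balance depended on the scaling, with 32 higher and 44 lower after quantile normalization, 27 and 51 with array medians and 152 and 9 with endothelial centring. Under endothelial centring the median of all genes was itself 0.88. Slc16a1, the monocarboxylate transporter MCT1 that carries lactate and ketone bodies, had signals of 11.08 to 11.74 (median 11.51) in RMVs and 9.53 to 10.64 (median 9.65) in BMVs, a difference of 1.62 ± 0.15 (SE, adjusted p = 3.71e-10), and the tissues differed by 1.59. The glucose transporter Slc2a1 was at 13.29 to 13.66 (median 13.49) in RMVs and 13.54 to 13.67 (median 13.63) in BMVs and differed by -0.14 ± 0.06, below 2-fold. Neither did the thyroid hormone carrier Slco1c1 (-0.63), the amino acid carriers Slc7a5 (-0.68), Slc7a1 (-0.85) and Slc38a5 (-0.55), or Mfsd2a (-0.39), which moves lysophospholipids, pass the threshold. Of the 51 measured carriers that the study lists as microvessel genes 21 were lower and 2 higher, a list which the study chose on these samples and which is not independent evidence of direction. The organic anion transporter Slc22a8 was among the lower ones, with signals of 9.42 to 10.03 (median 9.53) in RMVs and 11.51 to 12 (median 11.75) in BMVs and a difference of -2.09 ± 0.21 (SE, adjusted p = 1.49e-09), and so were the glucose carrier Slc2a12 (-1.7), the iron exporter Slc40a1 (-1.14), the thiamine carrier Slc19a3 (-1.1) and the riboflavin carrier Slc52a3 (-1.25). The copper carrier Slc31a2 was higher (1.32).

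Of 46 genes of the ABC family 6 were lower and 3 higher, against 5.25% and 5.72% of all genes (median -0.03), and with endothelial centring 2 were lower and 16 higher (median 0.77, against 0.88 over all genes). P-glycoprotein (Abcb1a), which returns drugs to the blood, had signals of 10.07 to 10.97 (median 10.75) in RMVs and 11.87 to 12.06 (median 11.97) in BMVs, a difference of -1.3 ± 0.12 (SE, adjusted p = 5.47e-10), and Abcc4 one of -1.29 ± 0.11. The breast cancer resistance protein Abcg2 was at 9.06 to 9.85 (median 9.52) in RMVs and 9.88 to 11.44 (median 10.69) in BMVs, so that the groups came close to each other, and differed by -1.21 ± 0.24 (adjusted p = 7.19e-05). The cholesterol exporter Abca1 differed by -2.08, and Abca4 and the neuronal Abcg4 (2.06) were higher. Of the enzymes at the barrier 9 of 20 were lower and none higher (45%, against 11% of all genes, median -0.85, -0.05 with endothelial centring), among them aromatic amino acid decarboxylase (Ddc, -3.39), angiotensin-converting enzyme (Ace, -2.49) and the monooxygenases Fmo1 (-2.14) and Fmo2 (-2.01).

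Signals that keep the barrier in place, the Wnt and norrin pathway, showed 5 of 20 genes lower and 1 higher (30%, against 11% of all genes). Their median was -0.82, and -0.02 with endothelial centring (0.88 over all genes), where none was lower and 2 were higher. The receptor Fzd4 (-0.47) and its co-receptors Lrp5 (-0.83) and Tspan12 (-0.86) stayed below 2-fold, and the ligand norrin (Ndp) had nearly equal signals of 6.19 to 6.67 (median 6.43) in RMVs and 6.32 to 6.54 (median 6.46) in BMVs. The lower members included Apcdd1 (-1.47), the Wnt deacylase Notum (-1.35), Axin2 (-1.25) and Tnfrsf19 (-1.18), which were at -0.67, -0.56, -0.45 and -0.38 and not called with endothelial centring, while the nuclear factor Lef1 (-0.95) and Sox17 (-0.97) were just under the threshold. Plvap, a protein of fenestral diaphragms that the pathway keeps low in barrier vessels, was the member that was higher, with signals of 6.41 to 6.57 (median 6.44) in RMVs and 5.17 to 5.64 (median 5.38) in BMVs and a difference of 1.07 ± 0.08 (SE, adjusted p = 5.4e-12). The groups did not overlap for Plvap, but all values were low, and the gene no longer passed 2-fold after quantile normalization or with centring on array medians. Of 19 genes of caveolae and transcytosis 4 were lower and 1, Plvap, higher (26.3%, against 11% of all genes, median -0.71), and with endothelial centring none was lower and 2 were higher (median 0.09). The lower ones were the receptors Lrp1 (-1.54), Tfrc (-1.44), Igf1r (-1.08) and Lrp8 (-1.05), of which Igf1r (-0.88) and Lrp8 (-0.95) lost their call after quantile normalization. Caveolin Cav1 (-0.97) was not called, while it differed by 2.26 between RT and BT.

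Members of growth factor pathways that were called on the deposited scale were all lower. Of 31 TGF-beta and BMP genes 7 were lower and none higher (22.6%, against 11% of all genes, median -0.65), led by the ligand Bmp6 with signals of 6.51 to 7.25 (median 7.05) in RMVs and 11.51 to 11.78 (median 11.69) in BMVs, a difference of -4.67 ± 0.2 (SE, 25.5-fold, adjusted p = 4.81e-17). Bmp7 (-2.13) and Bmp2 (-1.71), the ligand Tgfb1 (-1.32) and the co-receptor Tgfbr3 (-1.42) were lower as well. Among PDGF, angiopoietin and VEGF genes 7 of 19 were lower and none higher (36.8%, against 11% of all genes), with Pdgfd at -2.1, Vegfc at -1.21 and the Tek ligand Angpt1 at -1.17, while Pdgfb (-0.67) and Angpt2 (-0.3) did not pass. Of 20 Notch pathway genes Notch2 (-1.17) and Jag2 (-1.15) were lower and none higher. The share called was 10%, against 11% of all genes called in either direction and 5.25% called lower. Notch1 (-0.97), Notch3 (-0.99), Dll4 (-0.95) and Jag1 (-0.56) were not called. With endothelial centring the medians of these 3 lists were 0.15, 0.02 and 0.11, against 0.88 over all genes. In them 4, 2 and 3 genes were called higher and 2, 2 and none lower.

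Basement membrane genes were mostly lower in RMVs on the deposited scale. Of 22 such genes 11 were lower and 1, the laminin chain Lamb3, was higher (1.93, 54.5% called against 11% of all genes), with a median of -0.91. With endothelial centring the median was -0.11, against 0.88 over all genes, with 2 genes lower and 1 higher. Of 36 genes of the collagen family 5 were lower and none higher on the deposited scale (13.9%, median -0.05). The laminin chain Lama1 had signals of 6.46 to 6.68 (median 6.59) in RMVs and 8.97 to 9.42 (median 9.37) in BMVs, a difference of -2.71 ± 0.08 (SE, adjusted p = 3.99e-21), and nidogen Nid2 differed by -2.36, whereas the main collagens of the vessel, Col4a1 (-0.59) and Col4a2 (-0.39), stayed below 2-fold. Of 28 genes of vascular tone 6 were lower and none higher (21.4%, against 11% of all genes), with a median of -0.35. With endothelial centring 2 were lower and 9 higher, but their median of 0.44 lay below the 0.88 of all genes. Angiotensin-converting enzyme (Ace) was at 8.34 to 8.59 (median 8.49) in RMVs and 10.79 to 11.09 (median 10.97) in BMVs, and differed by -2.49 ± 0.11 (SE, 5.62-fold, adjusted p = 1e-16) between the isolates but by -0.23 between the tissues. The natriuretic peptide receptor Npr1 (-1.6), endothelin-3 (Edn3, -1.75) and the neuronal nitric oxide synthase Nos1 (-2.23) were lower too. Antigen presentation and interferon genes were lower in 7 of 27 cases (25.9%, against 11% of all genes, median -0.52, 0.28 with endothelial centring, where 1 was higher and 1 lower), among them the invariant chain Cd74 (-2.07) and the class II genes RT1-Ba (-1.79) and RT1-Da (-1.4), a family of similar copies. None of 20 immediate early genes was called, and Fos had overlapping signals of 5.99 to 6.68 (median 6.23) in RMVs and 5.6 to 6.85 (median 5.98) in BMVs.

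The same contrast in the whole tissues was set beside that in the isolates. RT and BT differed for 3168 genes (17.4%), 1143 higher (6.29%) and 2025 lower (11.1%) in RT. Of the 1040 genes higher in RMVs 532 were also higher in RT (51.2% of them and 46.5% of the genes higher in RT), 20 were lower there and 488 neither. Of the 953 genes lower in RMVs 445 were also lower in RT (46.7% of them and 22% of the genes lower in RT), 6 were higher there and 502 neither. The difference between RMV minus BMV and RT minus BT itself, an interaction contrast of the same model, passed both thresholds for 2828 genes (15.6%, with 10.4% above 0 and 5.15% below), 314 of them among those higher and 306 among those lower in RMVs in the same direction.

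Genes whose tissue difference was under 0.5 while the interaction passed and the arrays did not overlap numbered 174 higher and 212 lower in RMVs. The 12 leading genes upwards were the procollagen protease Adamts3 (3.0), the adhesion molecules Cntn4 (2.8) and Nfasc (2.4), Ppp2r2b (2.74), Sphkap (2.7), secretogranin Scg2 (2.69), the hairpin Mir190b (2.68), the glycine receptor subunit Glra2 (2.63), the guidance cue Slit2 (2.61), Rasgrf2 (2.37), the olfactory receptor Or8b101c (2.37) and the tachykinin receptor Tacr3 (2.34). Slit2 had signals of 8.73 to 9.35 (median 9.0) in RMVs and 6.16 to 6.68 (median 6.39) in BMVs, with RT at 8.92 and BT at 8.68, so that the BMVs alone were low. Downwards the 12 were Slc22a6, Ms4a4a (-3.17), the magnesium channel Trpm6 (-3.09), the prostaglandin D synthase Ptgds (-2.93), the glypican Gpc3 (-2.79), Slc26a10 (-2.75), Fndc1 (-2.72), Lama1, the prostaglandin D2 receptor Ptgdr2 (-2.5), Ace, the carboxypeptidase Cpz (-2.49) and Mrgprf (-2.46). Ptgds, an abundant product of the meninges, was at 9.95 to 10.96 (median 10.14) in RMVs and 13.02 to 13.27 (median 13.19) in BMVs, while RT (10.49) and BT (10.8) lay within 0.5 of each other.

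Some genes were called in opposite directions in isolates and tissues. The insulin-like growth factor Igf2 differed by -1.74 between the microvessels and by 1.7 between the tissues, the collagen cross-linking enzyme Lox by -1.73 and 1.79, and the transcription factor Tbx3 by -1.25 and 1.87. Fgf1 (-1.21 and 1.3) and the complement inhibitor Serping1 (-1.05 and 1.17) had the same pair of signs, although Serping1 fell short of 2-fold without RMV replicate 2 (-0.94), without BMV replicate 6 (-0.96) and after quantile normalization. Neuronal Stmn3 (1.83 and -1.52), Napb (1.47 and -1.09) and Lamp5 (1.32 and -1.26), as well as Hbb-b1 with -1.66 between RT and BT, went the other way, higher in RMVs and lower in RT.

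**Figure D3:**
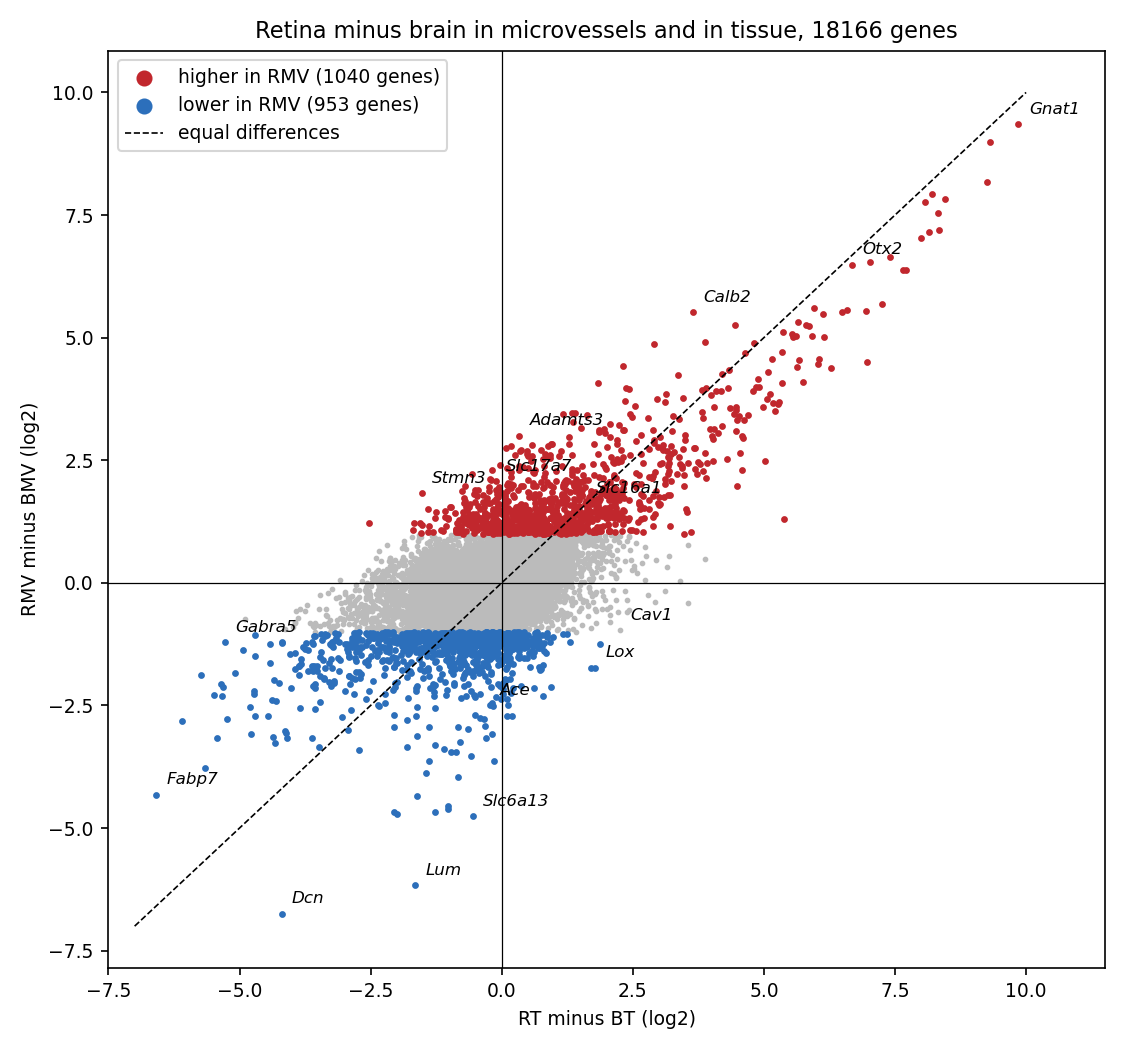
RMV minus BMV (vertical axis, log2) against RT minus BT (horizontal axis, log2) for 18166 genes, with genes called higher or lower in RMVs in red and blue and a dashed line of equal differences. Gnat1 lies close to the line, whereas Slc6a13 lies far below it with a tissue difference of -0.55.

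Few genes that lay above their own tissue in both isolates were higher in RMVs. A set of 1342 genes lay at least 1 above its own tissue in both isolates, a rule added after the values were seen and one that shares the microvessel arrays with the comparison. Array medians were themselves higher in the isolates. Their median was 6.81 in RMVs against 6.17 in RT, and 6.5 in BMVs against 5.91 in BT. The rule therefore does not pick out vessel genes alone, and the set also holds vomeronasal receptor genes. Of the 1342 genes 25 were higher in RMVs (1.86%) and 392 lower (29.2%), against 5.72% and 5.25% of all genes, and the median was -0.72. The 25 hold 12 microRNA hairpins. Among the protein genes Ly6c, a surface antigen of endothelial and blood cells in rodents, had signals of 8.58 to 9.62 (median 9.07) in RMVs and 6.65 to 7.52 (median 6.8) in BMVs, a difference of 2.12 ± 0.17 (SE, adjusted p = 3.05e-11), with RT at 5.66 and BT at 5.87. The methyltransferase Inmt (1.5), the growth factor Igf1 (1.21), the transcription factor Ebf2 (1.13) and Slc16a1 belong to the same set, but Igf1 (0.91) and Ebf2 (0.84) were below 2-fold with arrays centred on their medians. Large changes downwards in the set were those of carbonic anhydrase Car4, with signals of 8.07 to 8.87 (median 8.53) in RMVs and 11.62 to 12.24 (median 11.8) in BMVs and a difference of -3.4 ± 0.12 (SE, adjusted p = 1.06e-18), of the coagulation inhibitor Tfpi (-2.55) and of the decoy receptor Tnfrsf11b (-2.48).

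How far the vessel genes lay below 0 followed the scaling. On the deposited scale, after quantile normalization and with centring on array medians or on 3 reference genes, the medians of the endothelial, arterial, Wnt and norrin, barrier enzyme and basement membrane lists were between -1.27 and -0.70, and with centring on endothelial markers they lay between -0.17 and 0.10, the endothelial one near 0 by construction. Those of the fibroblast, macrophage, microglial, oligodendrocyte and astrocyte lists remained below 0 under every scaling, and those of photoreceptors and inner retinal neurons above it. Each centring moves all lists by the same amount. Which lists cross 0 then follows from their deposited medians and is no separate result. Of the 953 genes lower in RMVs 177 remained so with endothelial centring. Beyond the named genes, 18174 clusters without a single gene symbol held 1442 that were higher and 234 that were lower in RMVs, with a median of 0.26.

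**Figure D4:**
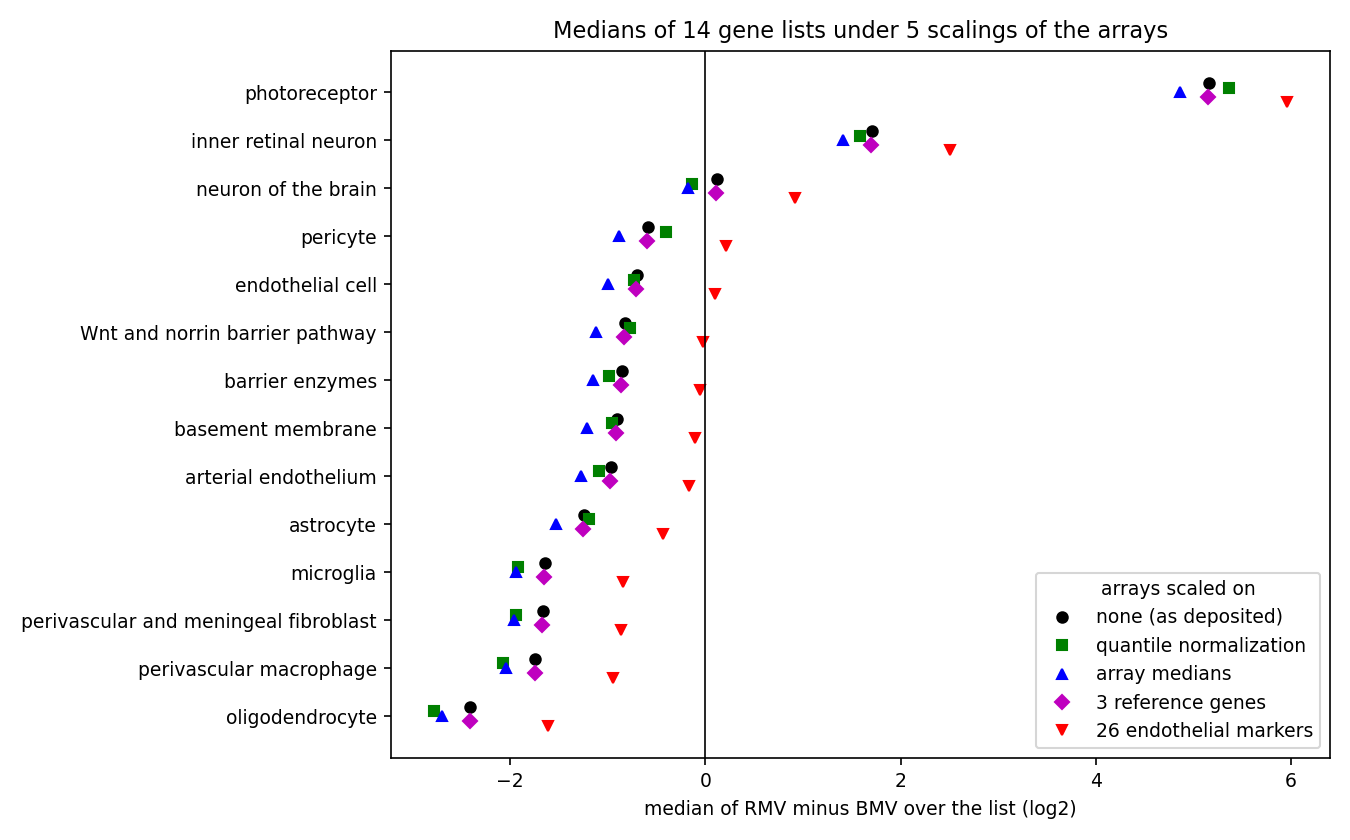
Median of RMV minus BMV over 14 gene lists (horizontal axis, log2) under 5 scalings of the arrays, 1 marker per scaling. The vascular lists move to between -0.17 and 0.21 when arrays are centred on 26 endothelial markers, and the photoreceptor and oligodendrocyte lists keep their side of 0. Each centring moves all lists by the same amount, so their distances to each other stay the same.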

How the data were processed

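Data were log2 signals of 24 Affymetrix Rat Gene 2.0 ST arrays, as deposited by the authors in 1 table after processing in Affymetrix Expression Console 4.0. Which build of the annotation, which normalization and which summarization stand behind them is not given in the sources used here, and depth is not defined for arrays, whose number (6 per group) limits the precision. The values were used without further normalization. Of 36685 clusters 18511 carried 1 gene symbol in the platform annotation, 575 several and 17599 none. Symbols were updated through Entrez identifiers (18394 matched) to RefSeq GRCr8. For 291 genes with several clusters the cluster of highest mean signal on the 24 arrays stood for the gene, leaving 18166 genes.

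A model with the 4 groups was fitted to all arrays in limma 3.58.1 (R 4.3.3) and moderated by empirical Bayes (5.73 prior degrees of freedom). Contrasts were RMV minus BMV, RT minus BT and their difference. Genes passed at a fold change of 2 and a Benjamini-Hochberg adjusted p under 0.05 over all genes. The code was tested on simulated data. SE is the moderated standard error. Per the methods, the 4 groups came from the same 6 rats, but the labels do not tie a replicate number to a rat, so the fit has no term for the animal and the replicate number was a block only in an alternative.

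Named genes were chosen from the 12 with the largest change in each direction, the 12 in each direction with a tissue difference under 0.5 and the interaction past both thresholds, and members of the gene lists. Genes outside this rule, the set of genes above their own tissue, the microRNA hairpins and the promoter groups were added after their values were seen. Members and lists were chosen with earlier results of these data known. Alternatives were other scalings (quantile, array median, 3 reference genes, and endothelial markers, the last added after seeing the data), filters on low signals, the mean of clusters, the replicate block, array weights, other thresholds and leaving out each array.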

Additional observations from a re-analysis of the deposited data

Results flagged for a closer look

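Single arrays stood apart from the other 5 of their group, by Dixon's test, in 36 of 416 gene and group pairs tested among the genes named in the text (8.7%), where chance alone flags about 1 in 20. The value given for each gene is the gap to the nearest array as a share of the range of the group. BMV replicate 1 was high for Mir126b (0.778) and low for Gabra5 (0.782). BMV replicate 2 was high for Slc38a5 (0.686) and low for Axin2 (0.652). BMV replicate 4 was high for Gpr34 (0.75) and low for Crx (0.641) and Slc26a10 (0.778). BMV replicate 5 was low for Bmp7 (0.629), Dcn (0.714), Lama1 (0.641), Slc13a4 (0.651) and Slc22a6 (0.627). BMV replicate 6 was high for Abca1 (0.682) and low for Lsr (0.655), Rgr (0.674) and Tacr3 (0.641). RMV replicate 1 was high for Ptgdr2 (0.665) and low for Ddc (0.737) and Slc22a6 (0.629). RMV replicate 3 was high for Bmp2 (0.723) and Cpz (0.677). RMV replicate 5 was high for Ptgds (0.781), Slc6a13 (0.629) and Tyrp1 (0.645) and low for Nid2 (0.635), Notch1 (0.635), Slc40a1 (0.775), Slc7a1 (0.754) and Zic1 (0.766). RMV replicate 6 was high for Apcdd1 (0.654) and low for Abcg4 (0.708), Aldoc (0.647), Calb2 (0.775), Dkk3 (0.792), Slc17a7 (0.71) and Slc1a3 (0.767).

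The difference between retina and brain was not the same in microvessels as in tissue, by the interaction test of the limma model, for 110 named genes. Values are RMV minus BMV less RT minus BT on the log2 scale. Among genes higher in RMVs the value was above 0 for Stmn3 (3.35), Hbb-b1 (2.89), Adamts3 (2.67), Ppp2r2b (2.66), Cntn4 (2.62), Lamp5 (2.58), Napb (2.56), Nfasc (2.42), Slit2 (2.36) and Ly6c (2.34). The value had this sign for Mir190b (2.33), Sphkap (2.32), Mir124-3 (2.25), Tacr3 (2.24), Syt1 (2.2), Scg2 (2.2), Slc17a7 (2.18), Glra2 (2.15), Rasgrf2 (2.04) and Or8b101c (1.97). The same sign was found for Hba-a1 (1.94), Calb2 (1.86), Dkk3 (1.68), Mir218-1 (1.64), Mir204 (1.21) and Abcg4 (1.2). Among genes higher in RMVs it was below 0 for Abca4 (-2.47), Cngb1 (-1.51), Guca1a (-1.33), Opn1sw (-1.29), Pde6a (-1.28), Trpm1 (-1.23), Prph2 (-1.14), Slc31a2 (-1.11), Cnga1 (-1.09) and Rax (-1.01). This sign was also found for Rp1 (-1.0). Among genes lower in RMVs the value was below 0 for Lum (-4.51), Slc6a13 (-4.2), Col12a1 (-3.53), Lox (-3.52), Slc22a6 (-3.49), Igf2 (-3.43), Tbx3 (-3.13), Mrc1 (-3.13), Bmp7 (-3.07) and Slc6a20a (-2.94). It was found as well for Trpm6 (-2.91), Lama1 (-2.9), Ms4a4a (-2.86), Fndc1 (-2.81), Slc13a4 (-2.73), Atp13a5 (-2.72), Bmp6 (-2.61), Ptgds (-2.61), Cpz (-2.6) and Dcn (-2.55). The interaction was likewise negative for Fgf1 (-2.51), Pdgfd (-2.48), Nid2 (-2.46), Gpc3 (-2.45), Cd163 (-2.44), Rbp4 (-2.44), Slc26a10 (-2.34), Ptgdr2 (-2.33), Mrgprf (-2.28) and Ddc (-2.28). Other values below 0 were found for Ace (-2.26), Serping1 (-2.22), Lyve1 (-2.19), Lsr (-1.97), Tfrc (-1.96), Igf1r (-1.94), Bmp2 (-1.82), Col1a1 (-1.81), Fmo2 (-1.75) and Gja5 (-1.72). Further values below 0 were those for Pln (-1.59), Aldh1a2 (-1.55), Notch2 (-1.54), Pdgfra (-1.51), Mir145 (-1.45), Jag2 (-1.42), Axin2 (-1.36), Slc2a12 (-1.34), Tfpi (-1.28) and Synpo2 (-1.27). The remaining values below 0 were those for Mir126b (-1.23), Myh11 (-1.21), Slc22a8 (-1.18), Abcc4 (-1.15), Edn3 (-1.11) and Lrp8 (-1.01). Among genes lower in RMVs it was above 0 for Gabra5 (4.07), Nrgn (3.85), Neurod6 (3.03), Gjb6 (2.37), Gja1 (2.35), Fabp7 (2.27), Opalin (2.27), Tnfrsf19 (1.68), Cldn10 (1.53) and Cldn11 (1.05). Of genes not called between the isolates it was above 0 for Mfsd2a (1.37). Of genes not called between the isolates it was below 0 for Cav1 (-3.23), Jag1 (-2.04), Slc7a5 (-1.88), Angpt2 (-1.39), Sox17 (-1.37) and Lrp5 (-1.15).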

How the results depend on the processing

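The numbers of genes higher and lower in RMVs and the number with an interaction, 1040, 953 and 2828, depended on scaling and thresholds more than on single arrays. Leaving out 1 array at a time gave 1022 to 1068 genes higher, 885 to 998 lower and 2797 to 2871 with an interaction. Quantile normalization gave 883, 1289 and 2341, of which 840 and 894 were shared with the main calls. With arrays centred on their medians 672 genes were higher and 1854 lower, and with centring on 3 reference genes 1026 and 962. Centring on endothelial markers, chosen after seeing the data, gave 7270 and 177. Without genes below the median signal, where fewer genes were tested, the counts were 613, 612 and 1870. A test against a 2-fold change (treat) gave 648, 449 and 1457, and a threshold of 1.5-fold 2605, 2448 and 6252. The median of all genes was -0.08 after quantile normalization, -0.22 with array medians and 0.88 with endothelial markers, against 0.08.

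All groups came from the same 6 rats, but whether a replicate number marks a rat is not stated. Deviations of same-numbered arrays correlated at 0.0081 to 0.13 between RMVs and BMVs (2 of 6 best with their own number), at 0.036 to 0.15 between RMVs and RT (5 of 6), at -0.086 to 0.12 between BMVs and BT (3 of 6) and at -0.015 to 0.07 between RT and BT (1 of 6), which leaves the pairing by number unsettled. With the replicate block 1040 genes were higher, 953 lower and 2830 had an interaction, and no call of a named gene changed.

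Among named genes Fos turned to -0.17 after quantile normalization and to -0.15 with array medians. Norrin (Ndp) ranged from -0.061 to 0.033 with 1 array left out. With endothelial centring 53 named genes lost their call, and the differences of Angpt2 (0.50), Cldn5 (0.29), Col4a1 (0.21), Col4a2 (0.40), Ctnna1 (0.013), Fzd4 (0.33), Jag1 (0.23), Mfsd2a (0.41), Ndp (0.79), Pdgfb (0.13), Pdgfrb (0.46), Rgs5 (0.53), Slc2a1 (0.66), Slc38a5 (0.25), Slc7a5 (0.11), Slco1c1 (0.17) and Vwf (0.43) turned above 0. Lrp8 lost its call without BMV replicate 1 or RMV replicate 5 (-0.98 each), and Slc40a1 without RMV replicate 5 (-0.96). Signals near the floor of the array, such as Lum in RMVs, limit the size of a fold, and the cause of the changes with scaling was not tested.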
